A study of Drosophila melanogaster and Drosophila simulans and Drosophila yakuba with 24 samples.

Results

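The eviscerated abdomen was compared with the head of the adult female fly, with genes of the piRNA pathway set aside. The comparison used 6 of the 24 samples of the series, 3 libraries per body part, and was chosen by tissue label alone. All flies were wild-type Drosophila melanogaster females of the Canton S strain, aged 10 days, with no transgene or treatment, and each library came from parts pooled from 25 to 100 flies. The question was which genes and gene groups separate the parts, and which of the genes higher in the abdomen are also abundant in the ovary. For that, 3 ovary libraries from females of the same strain and age were read beside them, and 3 thorax libraries served as a second somatic reference.

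The abdominal body wall left after evisceration holds fat body, the insect counterpart of liver and adipose tissue, together with oenocytes, epidermis, muscle, heart and sessile blood cells. Oenocytes make the long-chain cuticular hydrocarbons that waterproof the fly and act as contact pheromones. The head holds the brain and compound eyes, together with a smaller mass of fat body. Yolk proteins are made by female fat body and also by the follicle cells of the ovary, which make the eggshell proteins. In bulk RNA, fewer cells of a type and less RNA per cell cannot be told apart. The parts were also dissected differently, frozen for head and in cold buffer for abdomen, and that difference cannot be told apart from the tissue.

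The 6 libraries held 7884586 to 19208152 gene counts each, and 11188 of 13898 genes passed the filter on low counts. Levels are given as CPM, the counts of a gene per 1e+06 counts of the library after TMM scaling. TMM adjusts for library composition on the assumption that most genes do not differ. A gene was called at an adjusted p under 0.05 in edgeR's quasi-likelihood test. 2 libraries stood apart within their groups. Abdomen replicate 1 differed from replicates 2 and 3 by a chi-square per degree of freedom of 124 and 92.4, against 13.6 between replicates 2 and 3. Head replicate 1 had at least 1 read on all but 27 genes, where head replicates 2 and 3 had none on 656 and 525 genes. Results that rest on either library are given with and without it.

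Most of the transcriptome differed between the parts. Of the genes tested, 8393 were called (75.0%), with 4008 higher in the abdomen (35.8%) and 4385 lower (39.2%). Which direction held more genes changed with the scaling, as given in the last section. In 8448 genes (75.5%) the 3 abdomen libraries did not overlap the 3 head libraries. Falls were larger than rises, with a median log2 fold change of -2.25 among lower genes and 1.42 among higher genes, beside -0.08 over all genes tested. A change of at least 16-fold was fitted for 1288 lower genes and 366 higher genes. The floors of the 2 directions were unequal. No read was found on 27, 656 and 525 genes in head replicates 1 to 3, and on 2479, 2464 and 2572 genes in abdomen replicates 1 to 3. The part of this in the larger falls was not tested.

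The genes were then divided by their ovary level. A gene was termed low in ovary when its mean CPM there was at most 0.1 times the larger of its abdomen and head means, abundant in ovary when it reached that larger mean, and intermediate between these limits. Of the 4008 higher genes, 2181 were abundant in ovary (54.4% of the higher genes and 19.5% of all genes tested), 1317 were intermediate and 510 were low in ovary (12.7% and 4.56%). The lower genes divided the other way, with 2285 low in ovary, 1613 intermediate and 487 abundant. Of the 2795 genes not called, 49.1% were abundant in ovary and 23.4% low, so the share abundant among higher genes was near that of genes not called. The 510 genes low in ovary carried 11.1%, 7.34% and 7.67% of the CPM in abdomen replicates 1, 2 and 3, and between 0.959% and 1.03% in the head libraries. The 2181 genes abundant in ovary carried 13.9%, 17.4% and 16.5% in the abdomen and between 4.35% and 4.96% in the head.

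**Figure D1:**
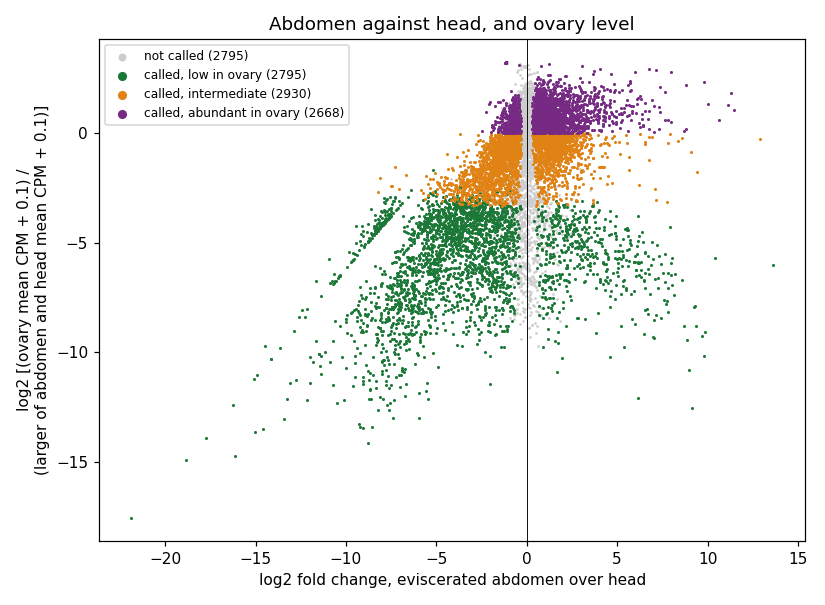
Each point is a gene, with its log2 fold change of abdomen over head on the x axis and the log2 ratio of its ovary CPM to the larger of its abdomen and head CPM on the y axis, with 0.1 CPM added to both. Genes called at an adjusted p under 0.05 are coloured by ovary class, and the 510 higher genes low in ovary form the green cloud on the right, below the 2181 purple genes.

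The classes followed different libraries. Among the 510 higher genes low in ovary, abdomen replicate 1 was the highest of the 3 abdomen libraries for 451 genes (88.4%). Among the 2181 abundant in ovary, it was the lowest for 1282 genes (58.8%). Genes that were not called had the same skew. There replicate 1 was the highest for 78.3% of genes low in ovary and the lowest for 67.5% of genes abundant in ovary. Without abdomen replicate 1, 452 of the 510 genes and 2127 of the 2181 genes were still called higher, and without head replicate 1 the counts were 483 and 2035. Transcripts restricted to the ovary were present in every abdomen library: 153 genes with at least 30 times more CPM in ovary than in head and thorax, outside the piRNA genes set aside, had a median of 29.5%, 47.6% and 43.9% of their ovary level in abdomen replicates 1, 2 and 3. Their low level in head and thorax was fixed by this choice. The part of ovarian RNA in the calls of the abundant class was not tested.

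The largest rises low in ovary were genes of the cuticle, of hydrocarbon synthesis and of digestion. Cpr49Ab, a cuticle protein gene, had 595, 230.3 and 283 CPM in abdomen replicates 1 to 3 and 0.820, 0.239 and 0.122 CPM in the head libraries, a log2 fold change of 9.83 (SE 0.83, adjusted p = 2.03e-07 from edgeR). Its ovary mean was 0.226 CPM and its thorax mean 5.11 CPM. Every abdomen library was thus high for this gene and every head library was below 1 CPM.

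eloF encodes a fatty acid elongase of the female pheromone pathway. Its libraries held 893, 436 and 502 CPM in the abdomen and 1.39, 0.558 and 0.244 CPM in the head, a log2 fold change of 9.68 (SE 0.70, adjusted p = 4.7e-08 from edgeR). Fad2, also called desatF, encodes the female-specific desaturase of the same pathway and had 1717, 899 and 984 CPM in the abdomen against 3.40, 0.877 and 1.10 CPM in the head. Its log2 fold change was 9.36 (SE 0.73, adjusted p = 1.04e-07 from edgeR). For both genes the abdomen and head libraries did not overlap, which the choice of these genes required. Their thorax means of 17.5 and 44.6 CPM lay far below the abdomen. Acbp3, an acyl-CoA-binding protein gene, had 135, 43.96 and 53.7 CPM in the abdomen and at most 0.378 CPM in a head library.

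Digestive proteases formed the other part of this group. Jon99Cii, a serine protease of the Jonah family, had 1088, 377 and 366 CPM in the abdomen and 1.51, 0.957 and 0.426 CPM in the head, a log2 fold change of 9.30 (SE 1.14, adjusted p = 7.34e-06 from edgeR). Jon99Ciii, Jon65Aiii, Jon65Aiv and the trypsin gene alphaTry rose by log2 fold changes from 7.97 to 9.25. Jon99Cii and Jon99Ciii are close paralogs whose reads the counting may have split, so their separate values are uncertain. All 5 proteases were higher still in the thorax, with means from 1849 to 3854 CPM. The remaining gene of the 10, whe, had 716, 385 and 318 CPM in the abdomen, a mean of 289 CPM in thorax and at most 1.12 CPM in a head library.

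The size of these rises depended on the libraries that stood apart, and their direction did not. The 10 log2 fold changes lay between 7.09 and 9.33 without abdomen replicate 1 and between 8.51 and 11 without head replicate 1. Head replicate 1 was the highest head library for 9 of the 10 genes.

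**Figure D2:**
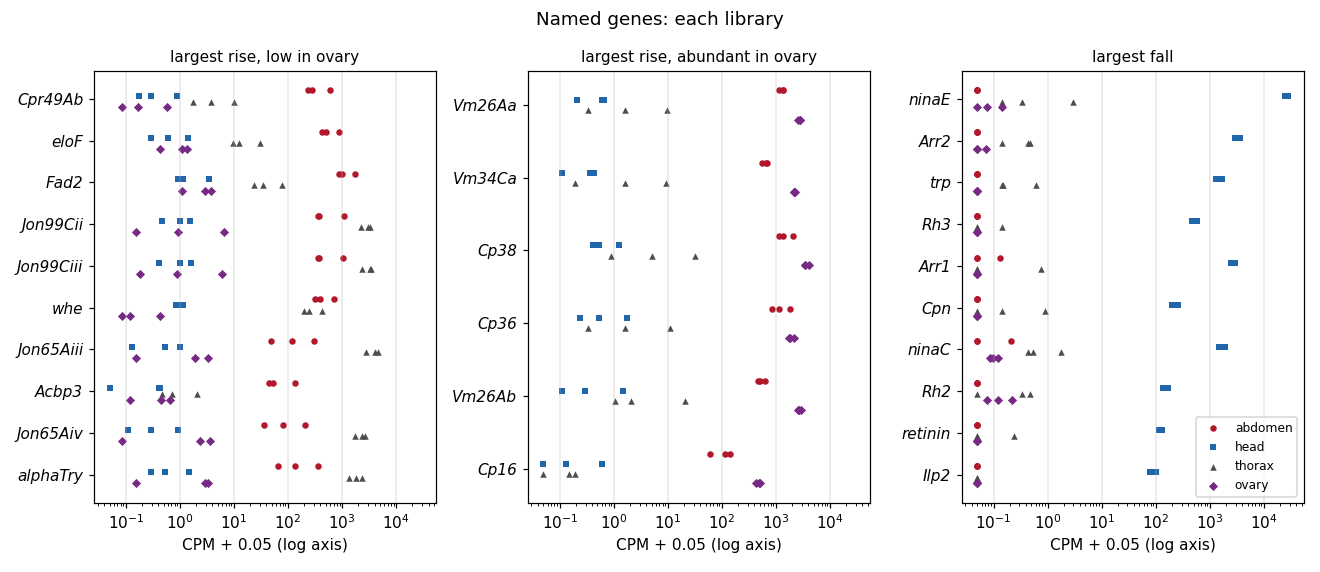
Level of each named gene in every library of abdomen, head, thorax and ovary, as CPM with 0.05 added on a log axis, for the 10 largest rises low in ovary, the 6 largest rises abundant in ovary and the 10 largest falls. The proteases, such as Jon99Cii, have more CPM in thorax than in abdomen, and the eggshell genes, such as Vm26Aa, have more in ovary than in abdomen.

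Levels were compared between genes on the authors' RPKM scale, which divides by gene length. By mean abdomen RPKM, the leading higher genes low in ovary were MtnA, a metallothionein that binds heavy metals, at 2133 ± 919 (SD, n = 3), then Cyt-b5 at 468 ± 206, Acbp2 at 458 ± 168, the immune-inducible peptide gene Dso2 at 422 ± 121 and lcs at 393 ± 189. Cyt-b5 encodes cytochrome b5, an electron donor to desaturases and cytochrome P450 enzymes. Its CPM was 2412, 1077 and 1190 in the abdomen and 124, 159 and 140 in the head, a log2 fold change of 3.47 (SE 0.29, adjusted p = 2.09e-07 from edgeR). MtnA had 4112, 2016 and 1883 CPM in the abdomen and 254, 335 and 299.9 CPM in the head, a log2 fold change of 3.17. The rise of Dso2 was small, at a log2 fold change of 0.69 (adjusted p = 0.0279 from edgeR), and was no longer called without abdomen replicate 1, where it was 0.42 (adjusted p = 0.0701 from edgeR), without head replicate 1 or 3, or in DESeq2 (adjusted p = 0.0750).

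The functional groups below were counted against the shares of all genes given above, 35.8% higher and 39.2% lower. Of the 13 genes tested in the oenocyte and cuticular hydrocarbon list, 6 rose and 5 fell, or 2 in both limma fits of RPKM, and 4 of the 6 were low in ovary. These 4 were eloF, Fad2, the fatty acid synthase gene FASN2 and the reductase gene FarO. FASN2 had 271, 250.0 and 226 CPM in the abdomen and 20.4, 14.4 and 11.02 CPM in the head, a log2 fold change of 4.03 (SE 0.38, adjusted p = 5.37e-07 from edgeR). Desat1, a desaturase used in many tissues, had a log2 fold change of -0.15 that was not called, and app, a palmitoyltransferase gene, was lower by -1.86. The median of the list, -0.02, changed sign under 17 of the 22 other settings.

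Genes of fat body secretion did not rise together. Of 16 tested, 3 were higher and 7 lower, and the number higher was 6 without abdomen replicate 2 and 5 with library size alone or upper quartile factors. Npc2d had the largest rise of the list, with 10.6, 4.75 and 2.25 CPM in the abdomen and at most 0.630 CPM in a head library. Its log2 fold change was 4.45, or 3.75 without abdomen replicate 1 and 6.27 without head replicate 1. Lsp2, a hexamerin that serves as an amino acid reserve of the larva, was lower in the abdomen. It had 73.6, 40.9 and 111 CPM in the abdomen and 3497, 5482 and 5096 CPM in the head, a log2 fold change of -5.97 (SE 0.42, adjusted p = 3.39e-08 from edgeR). The lipid carrier gene apolpp, the leading gene of the list by RPKM, had 23914, 22608 and 31135 CPM in the abdomen and 33205, 40023 and 41119 CPM in the head, a difference that was not called (log2 fold change -0.56, adjusted p = 0.106 from edgeR). The ranges of apolpp did not overlap, yet the gene was abundant in both parts.

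The 3 yolk protein genes were lower in the abdomen than in the head, and far from low in either. Yp1 had 14723, 8944 and 8436 CPM in the abdomen and 39095, 52344 and 44737 CPM in the head, a log2 fold change of -2.08 (SE 0.25, adjusted p = 5.77e-06 from edgeR). Yp2 was lower by -1.10 (adjusted p = 0.000313 from edgeR) and Yp3 by -0.77 (adjusted p = 0.0131 from edgeR). In ovary the 3 genes had means of 1829, 2218 and 965 CPM, below those of either body part. The call of Yp3 was lost without abdomen replicate 2 (-0.56) or 3 (-0.60) and without head replicate 2 (-0.65), in limma on log2 RPKM + 0.1 and + 1 (adjusted p = 0.227 and 0.208) and with upper quartile factors in edgeR (adjusted p = 0.0778).

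Among genes of lipid storage and fatty acid metabolism 9 of 25 rose and 6 fell. The number lower was 11 without abdomen replicate 1 and 3 in both limma fits of RPKM. The lipid droplet protein gene Lsd-2 was lower, at 449.8, 607 and 674 CPM in the abdomen and 1124, 1086 and 1250 CPM in the head (log2 fold change -0.999, adjusted p = 0.000114 from edgeR). Of 14 genes of glycogen and trehalose metabolism 7 rose and 5 fell. UGP, which makes UDP-glucose for glycogen synthesis, had 601, 391 and 409 CPM in the abdomen and 117, 154 and 143 CPM in the head, and Pgm1, a phosphoglucomutase gene, had 1131, 596 and 637 CPM against 248, 315 and 287 CPM. Their log2 fold changes were 1.76 and 1.48. The hexokinase gene Hex-A was lower by -1.36.

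Digestive tract genes rose nearly throughout, with 32 of 36 higher, 0 lower and 31 of the 32 low in ovary. Their summed level was 5277, 1901 and 2360 CPM in abdomen replicates 1 to 3, between 259 and 281 CPM in the head libraries, 58103 CPM on average in thorax and 24 CPM in ovary. The abdomen sum was therefore a small part of that in thorax, and it was 2.48 times higher in replicate 1 than in the mean of replicates 2 and 3. The part of gut tissue in the rises low in ovary was not tested. Of the 11 Malpighian tubule genes 5 rose and 3 fell, with the urate oxidase gene Uro at 36.4, 32.5 and 18.1 CPM in the abdomen and at most 1.26 CPM in a head library. Without abdomen replicate 2, and in DESeq2, the number of tubule genes higher was 3. NtR had the largest fall of the tubule list, at a log2 fold change of -2.07.

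Cuticle proteins divided between the parts. Of 42 tested, 4 rose and 18 fell, and the counts moved with single libraries, to 30 lower without abdomen replicate 1 and to 7 and 8 higher without replicates 2 and 3. Library size alone and upper quartile factors gave 7 higher, and the limma fits of RPKM gave 8 and 9. Cpr72Ec had 68.3, 99.8 and 84.7 CPM in the head and at most 0.273 CPM in an abdomen library. Cpr65Au had 107, 41.4 and 50.4 CPM in the abdomen and 259, 269 and 299 CPM in the head, a log2 fold change of -2.06. Different family members thus led in the abdomen and in the head.

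**Figure D3:**
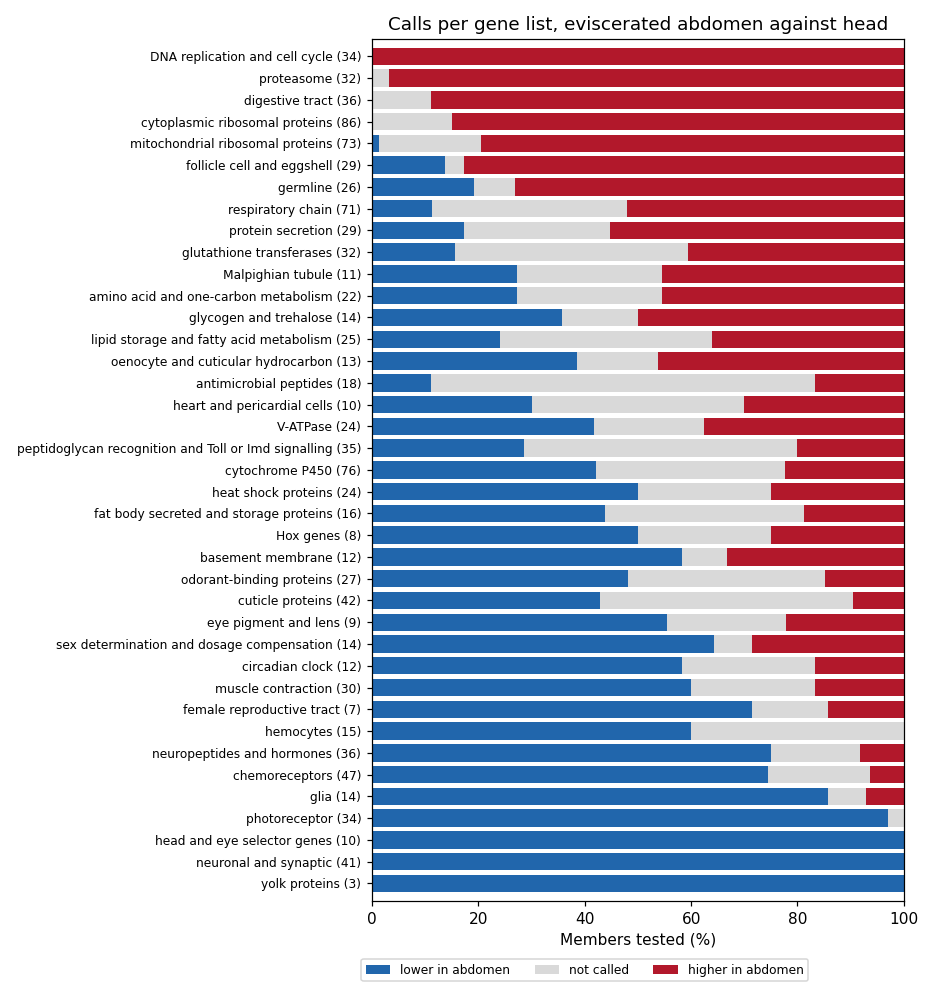
Share of tested genes called lower (blue), not called (grey) and called higher (red) in the abdomen for each of 39 gene lists, with the number tested in parentheses, ordered by the share higher less the share lower. All 34 genes of DNA replication and cell cycle are higher and all 41 neuronal and synaptic genes are lower.

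Antimicrobial peptide genes were mostly not called, and hemocyte genes were called in 1 direction. Of 18 antimicrobial peptide genes 3 rose, 2 fell and 13 were not called, and without thorax replicate 3, which entered the shared estimate of spread, 6 rose and 5 fell, and with only the head and abdomen libraries 5 rose and 5 fell. Drs, the antifungal peptide drosomycin, had 153, 89.2 and 122 CPM in the abdomen and 9.96, 5.90 and 6.64 CPM in the head, a log2 fold change of 4.01 (SE 0.85, adjusted p = 0.000795 from edgeR). Listericin was lower, at 24.2, 11.3 and 14.4 CPM against 92.3, 146 and 92.6 CPM. Of 15 hemocyte genes 0 rose and 9 fell in edgeR. The number higher was 1 with library size alone or upper quartile factors. It was also 1 without abdomen replicate 1, thorax replicate 1 or any single ovary library. The highest hemocyte genes by RPKM, atilla and srp, were not called, with log2 fold changes of 0.35 and -0.08. The lower genes included Pxn, peroxidasin of the basement membrane, at 8.38, 6.81 and 8.29 CPM in the abdomen against 69.9, 83.5 and 83.3 CPM in the head.

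Among 30 muscle contraction genes 5 rose, or 8 with library size alone or upper quartile factors, and 18 fell. Argk1, the arginine kinase that buffers ATP in muscle, had 280.2, 187 and 217 CPM in the abdomen and 655, 769 and 812 CPM in the head, a log2 fold change of -1.71. The muscle actin gene Act57B, at 635, 732 and 865 CPM against 583, 646 and 738 CPM, was not called (log2 fold change 0.18, adjusted p = 0.309 from edgeR). TpnC47D, a troponin C gene, had the largest rise of the list at 4.46, from at most 0.567 CPM in a head library, and 5.29 without head replicate 1.

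Hox genes, transcription factors that set segment identity along the body axis, differed between the parts in both directions, with 2 of 8 higher and 4 lower. Ubx had 26.1, 32.1 and 38.2 CPM in the abdomen and 5.17, 1.20 and 1.04 CPM in the head, a log2 fold change of 3.68 (SE 0.47, adjusted p = 1.05e-05 from edgeR). abd-A had 30.4, 43.4 and 40.5 CPM in the abdomen and 5.30, 2.31 and 1.22 CPM in the head, a log2 fold change of 3.69 (SE 0.41, adjusted p = 2.64e-06 from edgeR). Head replicate 1 was the highest head library for both, and without it the log2 fold changes were 4.84 and 4.46.

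The anterior Hox genes lab, pb, Dfd and Scr were lower in the abdomen, by log2 fold changes of -3.31, -6.87, -8.23 and -7.08. Dfd, which specifies maxillary and mandibular segments, had 47.3, 49.4 and 50.3 CPM in the head and at most 0.273 CPM in an abdomen library. The fitted values of pb, Dfd and Scr rest on a few abdomen reads, and leaving out abdomen replicate 2 moved them to -11.12, -7.51 and -7.87, while leaving out replicate 1 gave -6.27 for pb and -8.88 for Dfd. Antp, a thoracic gene, and Abd-B, which specifies the posterior abdomen, were not called. Abd-B had 6.56, 5.39 and 5.80 CPM in the abdomen and 8.38, 1.99 and 1.70 CPM in the head, so that the groups overlapped through head replicate 1.

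**Figure D4:**
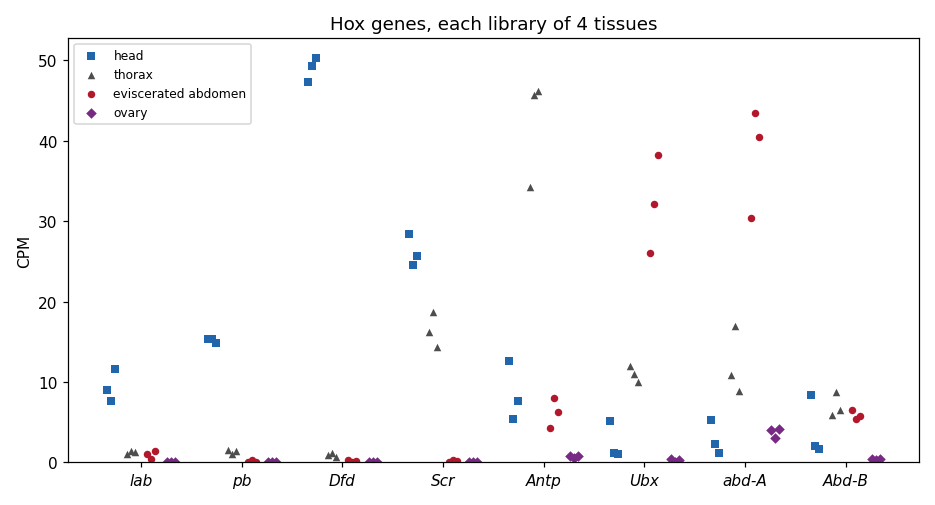
CPM of the 8 Hox genes in each library of head, thorax, eviscerated abdomen and ovary, on a linear axis. Dfd and Scr stand highest in head, Antp in thorax, and Ubx and abd-A in the abdomen, where abd-A reaches 43.4 CPM.

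The largest falls were genes of the eye. ninaE, the major rhodopsin of the outer photoreceptors, had 24808, 27956 and 27459 CPM in the head and 0 reads in each abdomen library. Set against a floor of 3 reads per abdomen library, it was at least 92626-fold lower in the abdomen. Arr2, an arrestin that ends the light response, had 2891, 3443 and 3552 CPM in the head and was at least 11414-fold lower, and the light-activated channel gene trp was at least 5268-fold lower. Of 34 photoreceptor genes 33 fell and 0 rose in edgeR, and 6 had no read in any abdomen library.

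The other falls of this size had the same form. Rh3, Rh2, Cpn and retinin had no read in an abdomen library and were at least 1859-fold, 541-fold, 822-fold and 438-fold lower. Arr1 had a single abdomen read and 2430, 2727 and 2904 CPM in the head, a ratio of 86099 (95% counting interval 15453 to 3400773). ninaC, the myosin of the photoreceptor, had 2 abdomen reads and a ratio of 27336 (95% counting interval 7567 to 225722). The intervals cover counting error only. Ilp2, an insulin-like peptide of brain neurosecretory cells, had 77.6, 100.1 and 91.6 CPM in the head and was at least 311-fold lower.

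All 41 neuronal and synaptic genes tested were lower in the abdomen, with a median log2 fold change of -7.31. nSyb, the synaptobrevin of synaptic vesicles, had 11.7, 7.29 and 5.33 CPM in the abdomen and 1263, 1405 and 1490 CPM in the head, a log2 fold change of -7.41 (SE 0.30, adjusted p = 2.9e-10 from edgeR). The 10 head and eye selector genes tested were lower as well, with toy, a Pax6 gene of the eye, at 152, 152 and 172 CPM in the head and 3 reads in all in the abdomen. Of 14 glial genes 12 fell and 1 rose, and Gs2, a glutamine synthetase, was lower by -2.67. Of 12 clock genes 7 fell and 2 rose, with 4 higher without abdomen replicate 1. vri, a clock transcription factor, had 52.9, 54.0 and 58.9 CPM in the abdomen and 490.0, 578 and 579 CPM in the head.

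Neuropeptide and hormone genes were mostly lower, 27 of 36, with 3 higher. Ilp8, a relaxin-like peptide, had the largest rise, with 92.1, 58.4 and 53.0 CPM in the abdomen, 1.01, 0.558 and 0.548 CPM in the head and 50.5 CPM on average in ovary, a log2 fold change of 6.56. Nplp2, by RPKM the leading gene of the list, had 10253, 4810 and 6392 CPM in the abdomen and 5141, 6558 and 5724 CPM in the head and was not called. Odorant-binding proteins, secreted carriers best known from the antenna, fell in 13 of 27 and rose in 4. Obp56e had 934, 1024 and 987 CPM in the head and 3.10, 0.792 and 0.710 CPM in the abdomen, a log2 fold change of -9.30, or -10.30 without abdomen replicate 1.

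Genes abundant in ovary were led by the eggshell. Vm26Aa, a vitelline membrane protein, had 1371, 1156 and 1372 CPM in the abdomen, 0.567, 0.160 and 0.609 CPM in the head and 2775, 2764 and 2532 CPM in the ovary, a log2 fold change of 11.43 against head (SE 0.88, adjusted p = 8.16e-08 from edgeR). Its abdomen mean was 48.3% of its ovary mean. The chorion genes Cp38 and Cp36 stood at 41.7% and 67.1% of ovary, and Vm34Ca, Vm26Ab and Cp16 at 28.5%, 19.9% and 21.9%. The log2 fold changes of these 6 genes lay between 9.13 and 11.42 without abdomen replicate 1 and between 11.29 and 11.95 without head replicate 1.

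Of 29 follicle cell and eggshell genes 24 rose, 22 of them abundant in ovary, and 4 fell, or 2 without abdomen replicate 3 or head replicate 1, with only the head and abdomen libraries and in both limma fits of RPKM. The largest rise of the list was intermediate. Cp15, a late chorion gene, had 3333, 1782 and 2258 CPM in the abdomen and 1579, 2228 and 2320 CPM in the ovary, ranges that overlapped, and at most 0.504 CPM in a head library. Abdomen replicate 1, the lowest library for most genes of the abundant class, was thus the highest for Cp15.

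Germline genes rose in 19 of 26, with 18 of the 19 abundant in ovary, and fell in 5, or 3 in limma on log2 RPKM + 1. osk, which organizes the germ plasm of the oocyte, had 432, 1105 and 844 CPM in the abdomen, 7.25, 1.44 and 0.609 CPM in the head and 1122 CPM on average in ovary, a log2 fold change of 7.98, or 9.64 without head replicate 1. Rbp9, an RNA-binding protein of neurons as well as of the germline, went the other way at -4.49. All 34 genes of DNA replication and cell cycle were higher, 32 of them abundant in ovary. CycB, the mitotic cyclin B, had 506, 1160 and 1116 CPM in the abdomen against 18.1, 5.34 and 2.31 CPM in the head, a log2 fold change of 6.75, or 7.94 without head replicate 1.

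The summed levels of these lists set abdomen replicate 1 apart in opposite directions. Relative to the mean of replicates 2 and 3 its sum was 0.468 times for germline genes, 0.587 times for DNA replication and cell cycle and 0.855 times for follicle cell and eggshell. For digestive tract genes the ratio was 2.48, for cuticle proteins 2.54, for yolk proteins 1.56 and for the oenocyte list 1.53. The part of these differences in the calls was not tested.

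**Figure D5:**
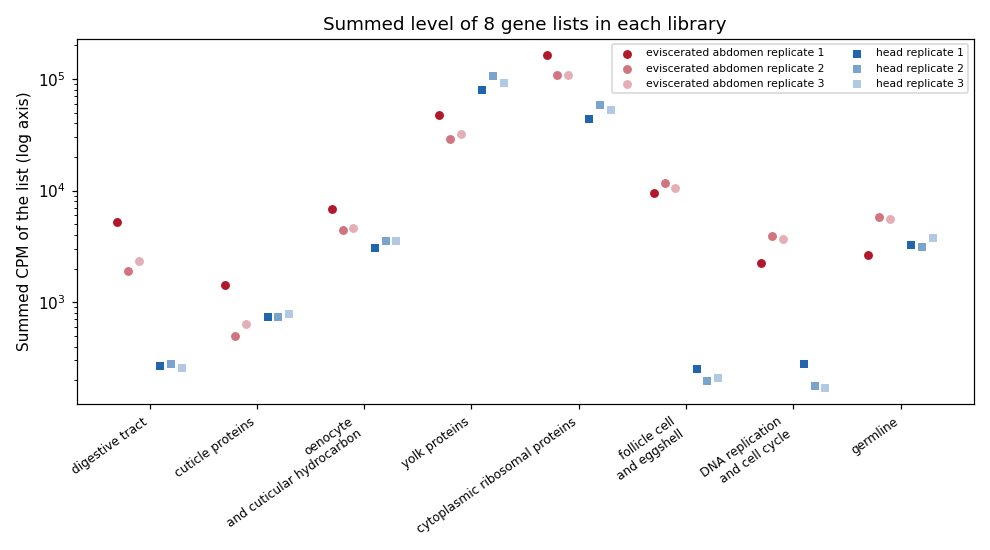
Summed CPM of 8 gene lists in each abdomen and head library, on a log axis. Abdomen replicate 1 is the highest abdomen library for the 5 lists on the left and the lowest for the 3 lists on the right.

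Genes of protein synthesis and turnover rose broadly and were mostly intermediate or abundant in ovary. Cytoplasmic ribosomal protein genes rose in 73 of 86 and fell in 0, with 56 intermediate and 17 abundant, and their summed level was 162197, 109108 and 108438 CPM in the abdomen and between 43611 and 58624 CPM in the head. RpL41 had 5731, 3852 and 3726 CPM in the abdomen and 279, 436 and 345 CPM in the head, a log2 fold change of 3.65. RpS5b, a paralog known for its expression in the female germline, had 80.8, 127 and 115 CPM in the abdomen, at most 1.77 CPM in a head library and 802 CPM on average in ovary.

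Proteasome subunits, which degrade ubiquitin-tagged proteins, rose in 31 of 32 and fell in 0, with 21 abundant in ovary. Prosalpha1 had 725, 442 and 428 CPM in the abdomen, 71.0, 78.1 and 75.4 CPM in the head and 285 CPM on average in ovary, a log2 fold change of 2.83 (SE 0.23, adjusted p = 1.24e-07 from edgeR). Mitochondrial ribosomal proteins rose in 58 of 73 and fell in 1. The number lower was 0 without abdomen replicate 1, with library size alone and in both limma fits of RPKM, among other settings. It was 2 without head replicate 1 and in DESeq2, among others. Respiratory chain genes rose in 37 of 71, fell in 8 and were not called in 26. The number of respiratory chain genes higher was 28 in DESeq2, 30 with only the head and abdomen libraries and 50 with library size alone. The number lower was 4 in both limma fits of RPKM and 5 without abdomen replicate 3. None of the genes called higher in these 4 lists was low in ovary. Among heat shock proteins 6 of 24 rose and 12 fell, with Hsp27, a small chaperone, at 356, 493 and 466 CPM in the abdomen, 12.4, 7.57 and 6.76 CPM in the head and 465 CPM on average in ovary.

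Further lists held calls in both directions. Of 76 cytochrome P450 genes 17 rose and 32 fell. Cyp6a18 had the largest rise of the P450 list, at a log2 fold change of 5.53, or 8.06 without head replicate 1. Cyp313a1, with 8 abdomen reads in all, had the largest fall, at a fitted -7.22. Of 32 glutathione transferase genes, which conjugate toxins to glutathione, 13 rose and 5 fell. The number of transferases lower was 8 in DESeq2, and 3 without abdomen replicate 2, head replicate 2 or thorax replicate 1, without a filter, with upper quartile factors and in both limma fits of RPKM. GstD1 had 824, 495 and 499 CPM in the abdomen and 154, 194 and 176 CPM in the head, a log2 fold change of 1.8. Of 22 genes of amino acid and one-carbon metabolism 10 rose and 6 fell, or 3 in both limma fits of RPKM. Of 29 genes of protein secretion 16 rose and 5 fell, with 2 lower with library size alone and 0 in either limma fit. The V-ATPase proton pump had 9 genes higher and 10 lower of 24, or 6 lower in both limma fits. Where edgeR called 0 genes of a list in a direction, 0 also had an unadjusted p under 0.05 in that direction, and DESeq2 and limma called 0 as well, except for 1 cytoplasmic ribosomal protein gene called lower by DESeq2.

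Of 35 genes of peptidoglycan recognition and Toll or Imd signalling 7 rose and 10 fell, whereas limma on log2 RPKM + 0.1 gave 10 higher and 5 lower and limma on log2 RPKM + 1 gave 9 and 5. Of 12 basement membrane genes 4 rose and 7 fell, with 2 higher without head replicate 1 or 3 and in DESeq2. Ppn, an extracellular matrix protein, had 90.7, 84.5 and 81.9 CPM in the abdomen and 491, 578 and 622 CPM in the head. SPARC had the largest rise of the list, at a log2 fold change of 1.03, or 0.59 without abdomen replicate 1. Of 10 heart and pericardial genes 3 rose and 3 fell, or 5 in DESeq2. Of 7 genes of the female reproductive tract 1 rose and 5 fell. The riser was Send1, a protease gene of the sperm storage organs, at 71.8, 5.94 and 24.1 CPM in the abdomen and at most 1.26 CPM in a head library, a log2 fold change of 5.99, or 4.85 without abdomen replicate 1 and 7.87 without head replicate 1.

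Of 180 chemoreceptor genes only 47 passed the filter, and 3 rose and 35 fell, with 5 higher without thorax replicate 2 or 3, with library size alone or upper quartile factors and in both limma fits. Of 9 eye pigment and lens genes 2 rose and 5 fell, with 1 higher when abdomen replicate 1 or 2 or head replicate 1 or 3 was left out, with the stricter filter and with the replicate block, and 0 in DESeq2 and with only the head and abdomen libraries. Of 14 genes of sex determination and dosage compensation 4 rose and 9 fell, with 2 higher without head replicate 2, in DESeq2 and with only the head and abdomen libraries, and 4 lower in both limma fits. Sxl, the switch gene of female development, had 205, 376 and 383 CPM in the abdomen and 721, 697 and 807 CPM in the head, a log2 fold change of -1.21.

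The 510 higher genes low in ovary varied in their thorax level. The thorax mean reached the abdomen mean for 163 of them and was at most 0.1 times the abdomen mean for 112. Cpr49Ab, eloF, Fad2 and Acbp3 were among the 112, whereas the 5 proteases were among the 163. For the 655 genes low in ovary that were not called, the corresponding numbers were 394 and 31. Of the 4385 lower genes, 4103 had a thorax mean at least as high as their abdomen mean, beside 1347 of the 2795 genes not called. Higher and lower genes were chosen by their abdomen level, which itself shifts these numbers.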

How the data were processed

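Total RNA (100 ng) was depleted of ribosomal RNA and sequenced. Per the labels and the study's methods, the authors mapped reads to dm3 with TopHat2 2.0.10 and counted them per gene with easyRNASeq, giving the deposited raw counts. The deposited RPKM values were calculated by the authors with library totals that do not follow the summed gene counts. The limma fits of RPKM therefore change the scaling between libraries as well as the test. Use of strand in counting is not given in the sources used here, so overlapping and antisense genes are uncertain.

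All 12 tissue libraries entered 1 edgeR 4.0.16 quasi-likelihood fit by tissue (filterByExpr, then TMM), with Benjamini-Hochberg adjustment over 11188 genes. The fit was also run on simulated counts in which few genes changed. That run cannot judge the scaling where most genes differ. Limma on log2 RPKM plus 0.1 or 1, DESeq2, other scalings and filters, a replicate block and each library left out were alternatives. The batch term the methods mention is not named in the labels and was not used. Symbols came from a gene ID table for 13376 of 13898 genes.

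The members and the 39 gene lists were chosen with earlier results of these data known. Outside 32 genes of the study, genes were named by size among called genes whose abdomen and head libraries do not overlap. They were the 10 largest rises low in ovary and 6 abundant in ovary, with at least 50 CPM in the abdomen. The 10 largest falls (at least 50 CPM in the head) and the 5 highest by abdomen RPKM were added. Per list, the rule took the largest called rise and fall and the 2 highest by RPKM, whether or not libraries overlapped. Not every gene chosen per list is described above. FarO was named to complete a count. Tables of repeat transcripts were not used here.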

Additional observations from a re-analysis of the deposited data

How the results depend on the processing

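Under 22 other fits the number of genes higher ranged from 3632 (only head and abdomen libraries) to 4512 (library size alone), and the median log2 fold change of all genes ranged from -0.51 without a filter to 0.19 in limma on log2 RPKM + 0.1. The direction with more genes changed with the scaling. Library size alone gave 4512 higher and 3873 lower, upper quartile factors 4510 and 3983, and DESeq2 3679 and 4876. Both limma fits of RPKM also had more genes higher than lower. Of the 39 lists, 31 kept the sign of their median under every fit. The count of higher genes abundant in ovary moved most of the 4 counts. From 2181 it became 3582 and 3520 in limma on log2 RPKM + 0.1 and + 1. There the ovary class was also taken from RPKM, so that the test and the class changed together. The RPKM scale itself differs between tissues: Cp15 had means of 4320 RPKM in ovary and 1319 in the abdomen, beside 2042 and 2457 CPM. The count was 688 when abundant meant at least 2 times the larger mean, and 2059 to 2595 when single libraries were left out. Leaving out single libraries gave 3791 to 4237 genes higher, 4164 to 4715 lower and 443 to 566 higher and low in ovary. Same-numbered abdomen and head replicates had correlations of 0.095, 0.012 and 0.094, beside -0.113 to 0.065 for unlike-numbered ones. So few values cannot decide whether the replicates were paired. With the replicate block 3914 genes were higher, 4322 lower, 2117 higher and abundant in ovary and 508 higher and low in ovary. Of 140 called genes named by the rule, 130 kept direction and call under every fit that tested them and none reversed. Depth limits the falls of genes at or near 0 reads in the abdomen. Genes among the 10 largest falls are given as bounds or counting intervals, while pb, Dfd and Scr, with 4, 5 and 6 abdomen reads in all, are given as fitted values. TMM over all genes before the filter was an alternative chosen after seeing the data, and it gave 4173 higher and 4204 lower.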
